A study of Mus musculus with 7 samples.

Results

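Small RNAs that work as the RNA part of a ribonucleoprotein were followed in mouse splenic B cells. The RNAs are RNase P RNA (Rpph1, with the related genes Rprl1, Rprl2 and Rprl3), RNase MRP RNA (Rmrp), 7SK RNA (Rn7sk) and telomerase RNA (Terc). All 7 genes named were found by symbol among the 46959 features of the authors' table, and the values of the 4 RNase P RNA genes were also summed. The genes were chosen because the wild-type and cKO MED1 values of some of them were already known, so their own levels are described here and no p-value is given for them.

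Splenic B cells labelled WT (3 libraries) or cKO MED1 (4 libraries) had been grown for 4 days with lipopolysaccharide at 1 µg/mL, which activates B cells, and interleukin 4 at 20 ng/mL, a cytokine that acts with it in class switching. Both groups received both agents, and no unstimulated cells entered the comparison. Med1 is a subunit of Mediator, the complex that carries signals from enhancer-bound factors to RNA polymerase II. The sources used here give neither the allele, the driver of the deletion nor the strain, and they do not say whether replicates came from separate mice. The p-values therefore describe how these particular libraries vary, which may be largely technical variation. Reads of the Y-linked gene Ddx3y, given below, were high in wild type and cKO MED1 replicate 3 and nearly absent from the other cKO MED1 libraries. The cKO MED1 libraries thus did not all come from the same donor, and sex largely coincides with group.

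RNase P is the ribozyme that cuts the leader from precursor transfer RNAs. RNase MRP shares most of its proteins and works on precursor ribosomal RNA, 7SK RNA holds the elongation factor P-TEFb (Cdk9 with a cyclin T) in an inactive store, and telomerase RNA carries the template for telomere repeats. RNase P, RNase MRP and 7SK RNAs are made by RNA polymerase III from promoters that lie outside the transcribed part, with the SNAPc complex and octamer factors, whereas telomerase RNA is made by RNA polymerase II. The mouse genome holds Rpph1 and further genes that resemble it, which the annotation lists as Rprl1, Rprl2 and Rprl3.

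The 4 RNase P RNA genes are shown because their reads can be told apart only as far as their sequences differ. Sequences are from the GENCODE annotation of GRCm38 and are written 5′ to 3′ on the RNA's strand. Rpph1 is at chr14:50807449-50807767 on the minus strand and its first 300 bases are printed (chr14:50807468-50807767), with capitals for a stretch that occurs in 2 tandem copies. Rprl3 is printed whole (chr8:3803069-3803358, minus strand). Rprl2 (chr3:22251374-22251609, plus strand) and Rprl1 (chr6:69326935-69327170, minus strand) are printed over the part that aligns with Rpph1. In these 3, capitals mark each base of the aligned part that differs from Rpph1; the last 54 bases of Rprl3 lie beyond that part and are in lower case without being compared.
Rpph1: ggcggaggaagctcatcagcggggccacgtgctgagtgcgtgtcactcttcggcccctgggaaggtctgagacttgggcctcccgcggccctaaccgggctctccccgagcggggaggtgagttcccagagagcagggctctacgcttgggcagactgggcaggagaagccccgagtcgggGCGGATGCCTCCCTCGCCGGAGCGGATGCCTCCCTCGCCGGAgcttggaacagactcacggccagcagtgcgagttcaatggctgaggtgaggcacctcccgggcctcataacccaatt
Rprl3: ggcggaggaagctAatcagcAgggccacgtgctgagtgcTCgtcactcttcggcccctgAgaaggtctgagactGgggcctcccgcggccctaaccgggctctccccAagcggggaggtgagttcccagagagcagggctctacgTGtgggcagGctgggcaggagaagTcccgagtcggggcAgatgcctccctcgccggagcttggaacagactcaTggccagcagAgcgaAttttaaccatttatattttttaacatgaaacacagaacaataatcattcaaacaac
Rprl2: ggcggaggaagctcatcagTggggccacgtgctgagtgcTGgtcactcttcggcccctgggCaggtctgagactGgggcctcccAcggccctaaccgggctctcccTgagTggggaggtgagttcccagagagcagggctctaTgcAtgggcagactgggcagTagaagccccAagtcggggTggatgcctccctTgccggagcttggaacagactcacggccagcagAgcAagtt
Rprl1: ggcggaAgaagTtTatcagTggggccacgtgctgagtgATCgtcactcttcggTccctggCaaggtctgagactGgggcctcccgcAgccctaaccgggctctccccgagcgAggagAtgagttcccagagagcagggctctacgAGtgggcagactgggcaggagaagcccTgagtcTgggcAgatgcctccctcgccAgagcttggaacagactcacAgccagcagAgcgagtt

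The copies resemble Rpph1 over its bases 1 to 257. Tails of 54 bases (Rprl2 and Rprl3) or 91 bases (Rprl1) lie beyond the aligned part and were not compared further. Over the aligned part Rprl3 has the base of Rpph1 at 221 of 236 positions (93.6%), Rprl2 at 220 of 236 (93.2%) and Rprl1 at 215 of 236 (91.1%). Each of the 3 lacks 1 stretch of 21 bases, which the alignment places at bases 182 to 202 of Rpph1, the first of its 2 tandem copies of the 21-base unit gcggatgcctccctcgccgga; with identical copies, placing it at the second, bases 203 to 223, gives as many matches. Counted from the first base of Rpph1, all 3 copies differ from it at 5 positions, and at 3 of those they hold the same base (G40T, T75G and T250A). The longest run shared with Rpph1 is 37 bases in Rprl3, 32 in Rprl2 and 27 in Rprl1, so that no window of 50 bases is common to Rpph1 and any copy. Rprl3 and Rprl2 have 7 such windows in common out of 241.

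**Figure D1:**
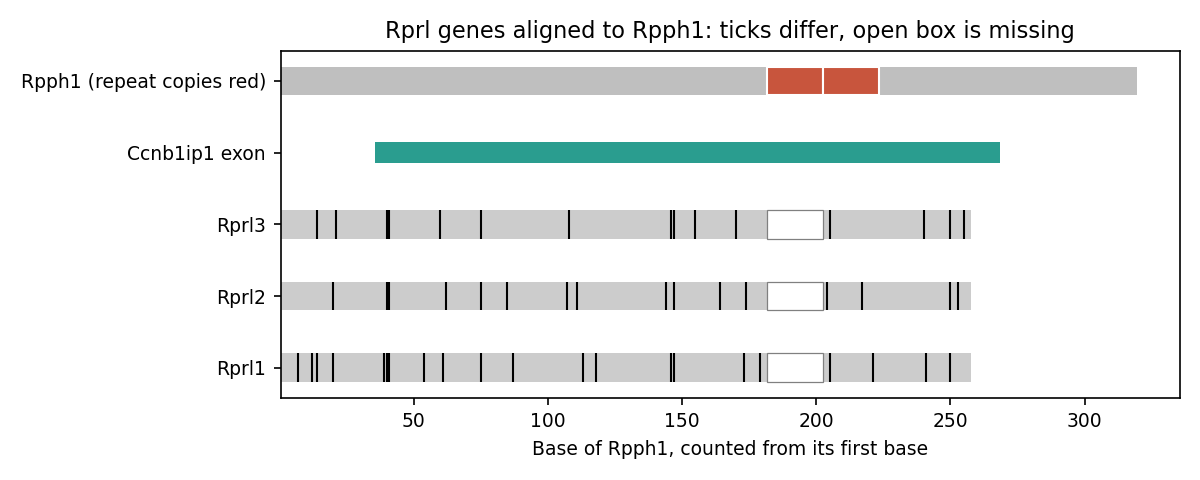
Rprl3, Rprl2 and Rprl1 laid on Rpph1, with the base of Rpph1 on the x axis. Ticks are differing bases, open boxes the 21 missing bases, red the 2 repeat copies at bases 182 to 202 and 203 to 223, and green the exon of Ccnb1ip1 that lies over Rpph1; each copy has differences along its whole length.

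Rprl3 was the member with the widest gap between the groups. Values are normalised reads, the recovered reads scaled to a library of 48019763 reads. Rprl3 had 5.51, 35.9 and 17.6 normalised reads in the wild-type libraries, in replicate order, and 1023, 1825, 1731 and 523 in the cKO MED1 libraries. The groups did not overlap, and the lowest cKO MED1 library was 14.6-fold above the highest wild-type library. The means were 19.7 ± 15.3 (SD, n = 3) in wild type and 1275 ± 616 (SD, n = 4) in cKO MED1, a fitted log2 fold change of 6.12 (SE 0.53) on the log2(normalised reads + 1) scale. The recovered reads behind these values were 8, 44 and 22 in wild type and 755, 1872, 1314 and 286 in cKO MED1. Rprl3 passed the filter on low values only through the cKO MED1 libraries, so its fitted change and lack of overlap are descriptions.

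Rprl2 followed with far fewer reads, 0, 0 and 1 recovered reads in wild type and 9, 18, 23 and 2 in cKO MED1. In normalised reads that is 0, 0 and 0.798 against 12.2, 17.5, 30.3 and 3.66. The groups did not overlap, yet the lowest cKO MED1 library rested on 2 reads and the fitted log2 fold change of 3.50 (SE 0.86) on a single wild-type read. Pooled over libraries and corrected for depth, Rprl2 had 66.6 times the wild-type reads in cKO MED1. The 95% exact interval of 11.4 to 2680 covers counting error only. It leaves out the variation between libraries and is not a test of the groups. It passed the filter on low values only through the cKO MED1 libraries, and it was no longer tested once cKO MED1 replicate 1, 2 or 3 was left out.

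Rprl1, which lies among immunoglobulin kappa V segments, was close to silent. Its recovered reads were 0, 1 and 0 in wild type and 1, 0, 1 and 5 in cKO MED1. Thus 5 of the 7 cKO MED1 reads came from replicate 4. The pooled ratio was 8.96, with a counting interval of 1.15 to 404 that likewise leaves out the variation between libraries. It did not pass the filter and was not tested. Beside it, the V pseudogene Igkv12-67 had 0 reads in each wild-type library and 1, 1, 0 and 3 in cKO MED1. On its other side the V pseudogene Igkv12-66 went the other way, with 2, 0 and 0 reads in wild type and 0 in each cKO MED1 library.

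Of the 6 members tested, Rprl2 and Rprl3 were past the limma threshold (adjusted p 0.05), against 28% of all 18062 genes tested. The members were chosen on this same contrast, so nothing is read from that share. Rprl3 and Rprl2 were also the only members whose groups did not overlap, which held for 39.1% of all tested genes.

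**Figure D2:**
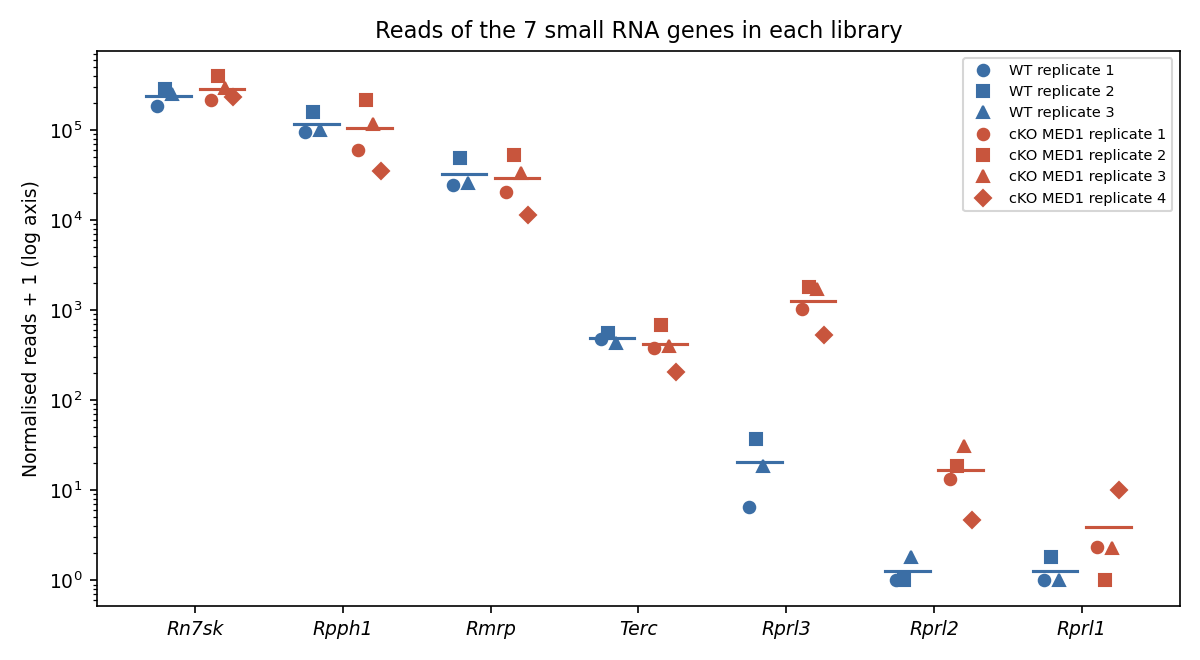
Normalised reads + 1 of each member on a log axis, 1 point per library. Rprl3 separates into wild-type libraries at or below 35.9 and cKO MED1 libraries at or above 523 normalised reads, whereas the wild-type and cKO MED1 points of Rpph1, Rmrp, Rn7sk and Terc overlap.

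Low levels of Rprl3 were above the reads that fall on silent genes. Olfactory and vomeronasal receptor genes, which B cells are not known to use, had 0.116 to 0.966 normalised reads per kb of exon over the 7 libraries. For the length of Rprl3 that level gives at most 0.28 normalised reads, below its lowest wild-type value of 5.51. The summed receptor reads were 651, 1315 and 1069 in wild type and 1272, 1752, 3214 and 5421 in cKO MED1, highest in cKO MED1 replicates 3 and 4. For Rprl1 the same level gives up to 0.32 normalised reads, in cKO MED1 replicate 4, the library with 5 of its reads. The part of these background reads in the levels of the copies was not tested. The receptor level does not cover reads of Rpph1 that were placed on a copy resembling it. The part of such reads in the low wild-type values of Rprl3 was not tested either. In cKO MED1 replicate 4, Rprl3 was lowest of the 4 cKO MED1 libraries while the receptor reads were highest.

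Within the RNase P RNA genes, the share of Rprl3 was more even among the cKO MED1 libraries than its level. Rprl3 made up 0.00583% of RNase P reads in wild-type replicate 1 (95% Wilson interval 0.00296 to 0.0115), 0.0228% in replicate 2 (0.0170 to 0.0306) and 0.0178% in replicate 3 (0.0118 to 0.0270). In cKO MED1 replicates 1 to 4 it made up 1.66% (1.55 to 1.79), 0.850% (0.812 to 0.889), 1.48% (1.41 to 1.56) and 1.48% (1.32 to 1.66). The intervals cover counting error only. The cKO MED1 shares span 1.96-fold from lowest to highest, against 3.49-fold for the level of Rprl3 and 6.10-fold for that of Rpph1. The mean share was 0.0155% ± 0.00873 (SD, n = 3) in wild type and 1.37% ± 0.356 (SD, n = 4) in cKO MED1. Rprl2 reads amounted to 0.699% to 1.75% of Rprl3 reads in the cKO MED1 libraries.

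**Figure D3:**
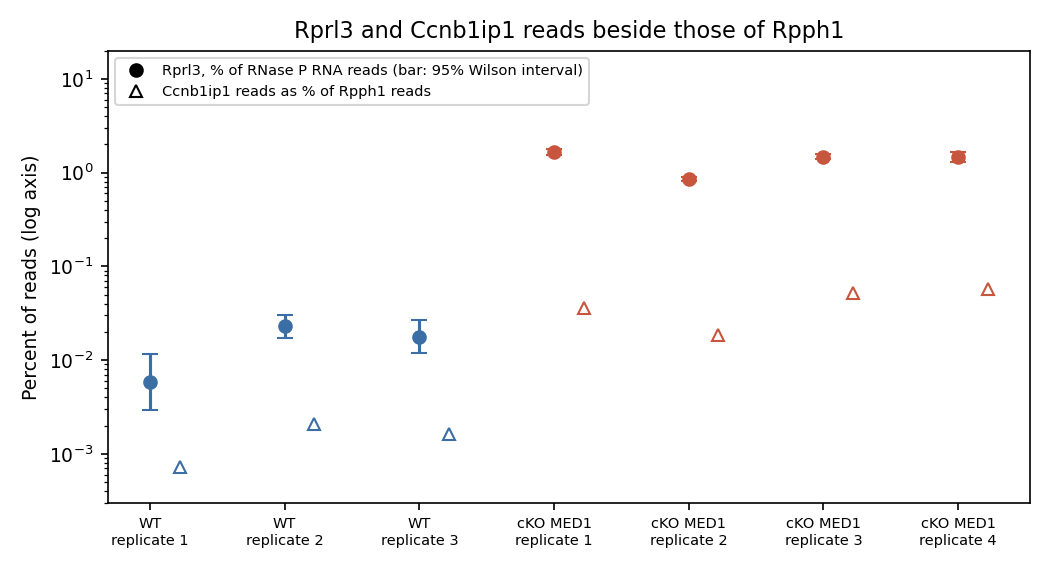
Percent of the RNase P RNA reads of each library that fell on Rprl3 (filled points, with 95% Wilson intervals), on a log axis. Open triangles show another quantity, the reads of Ccnb1ip1 as a percent of Rpph1 reads. The 4 cKO MED1 libraries hold 0.850% to 1.66% of RNase P reads on Rprl3 and the 3 wild-type libraries at most 0.0228%.

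The gene that lies over Rpph1 showed the same division of libraries. Ccnb1ip1, which encodes a cyclin B1 interacting protein known from meiotic crossing over, is on the strand of Rpph1, and 1 of its exons covers 233 of the 319 bases of Rpph1 (chr14:50807500-50807732). Its recovered reads were 1, 4 and 2 in wild type and 16, 40, 45 and 11 in cKO MED1, or 1.85 ± 1.31 (SD, n = 3) in wild type and 35.0 ± 18.3 (SD, n = 4) in cKO MED1 normalised reads. The groups did not overlap, with a log2 fold change of 3.63 (SE 0.56) and a limma adjusted p = 0.00196. Like Rprl2 and Rprl3, Ccnb1ip1 passed the filter on low values only through the cKO MED1 libraries. The p-value and the lack of overlap are therefore given as descriptions and lend no support. Its direction and call remained in 18 of 18 alternatives that tested it, which share that limit. Of the 270 windows of 50 bases in Rpph1, 184 occur in Ccnb1ip1 too, so reads over the shared exon cannot be assigned to 1 of these genes by sequence, and the labels and notes do not say how such reads were counted. Rprl3 shares no window of 50 bases with Ccnb1ip1.

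Across the 7 libraries Ccnb1ip1 was, of all tested genes, the one most like Rprl3 (Pearson r 0.990 and Spearman rho 0.964 of log2 values, n = 7). The next were Ighv3-2, a heavy chain V pseudogene with means of 82.9 and 1654 normalised reads in wild type and cKO MED1, and Ighv8-11, a heavy chain V gene with 15.9 and 309. The strain of either group is not given in the labels, so for Rprl3 and these V genes a difference of genetic background between the groups cannot be told apart from the cKO MED1 label. These correlations describe libraries that share their group difference and their depth. Rprl3 had 8 to 11 reads per Ccnb1ip1 read in wild type and 26 to 47.2 in cKO MED1. The annotated neighbours of Rprl3, the miRNA gene Gm24934 at 21939 bp and the pseudogene Gm7381 at 38738 bp, were too low to be tested, with at most 9 recovered reads in any library. Tbl1xr1, 34780 bp from Rprl2, had 3849 ± 64.1 (SD, n = 3) in wild type and 3738 ± 181 (SD, n = 4) in cKO MED1 normalised reads (log2 fold change -0.04, limma adjusted p = 0.699).

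Rpph1, which supplies nearly all RNase P reads, did not separate the groups. It had 94398, 157293 and 98533 normalised reads in wild type and 60458, 212931, 114925 and 34933 in cKO MED1. Replicate 2 was highest within each group, and cKO MED1 replicate 4 was lowest of all 7 libraries. The means of 116741 ± 35179 (SD, n = 3) in wild type and 105812 ± 78821 (SD, n = 4) in cKO MED1 differed by less than the spread between replicates (log2 fold change -0.42, SE 0.48). With 1 library left out the value ran from -0.84 (without cKO MED1 replicate 2) to 0.03 (without cKO MED1 replicate 4).

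Summed over Rpph1, Rprl1, Rprl2 and Rprl3, RNase P RNA had 94404, 157329 and 98551 normalised reads in wild type and 61494, 214773, 116687 and 35469.6 in cKO MED1. The mean was 116761 ± 35194 (SD, n = 3) and 107106 ± 79364 (SD, n = 4), so that the cKO MED1 mean stood at 91.7% of the wild-type mean. The mean log2 difference was -0.40, -0.81 without cKO MED1 replicate 2 and 0.05 without cKO MED1 replicate 4.

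Rmrp (chr4:43492788-43493058, minus strand) followed Rpph1 from library to library. It had 24225, 48599 and 25578 normalised reads in wild type and 20292, 52997, 32859 and 11451 in cKO MED1. The groups overlapped, with means of 32801 ± 13698 (SD, n = 3) in wild type and 29399.9 ± 18018 (SD, n = 4) in cKO MED1 and a log2 fold change of -0.30 (SE 0.42). Leaving out 1 library moved the Rmrp log2 fold change to between -0.63 (cKO MED1 replicate 2) and 0.10 (cKO MED1 replicate 4), with -0.04 when wild-type replicate 2 was left out. The order of the 7 libraries was the same for Rmrp as for Rpph1, from cKO MED1 replicate 2 through wild-type replicate 2 and cKO MED1 replicate 3 down to cKO MED1 replicate 4. Reads of Rpph1 per read of Rmrp were 3.90, 3.24 and 3.85 in wild type and 2.98, 4.02, 3.50 and 3.05 in cKO MED1, or 3.66 ± 0.369 (SD, n = 3) and 3.39 ± 0.479 (SD, n = 4). Rmrp overlaps Ccdc107 on the opposite strand, and 75 of its 222 windows of 50 bases occur there in reverse; Ccdc107 had 668 ± 48.0 (SD, n = 3) in wild type and 643 ± 86.4 (SD, n = 4) in cKO MED1 normalised reads. The use of strand in counting is not stated, and without it reads that fall wholly in the shared stretch cannot be told apart.

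The letters before Rpph1 and Rmrp are shown because these RNAs had the same library order. That order is not particular to them, as the pseudogene Gm14044 and the tubulin gene Tubd1 had it too. RefSeq promoter windows (GRCm38.p6) are centred on other genes here. Windows of the opposite-strand neighbours Parp2 and Ccdc107 were therefore reversed and cut at the RefSeq start of those genes. GENCODE starts them elsewhere, Parp2 at chr14:50807841 and Ccdc107 at chr4:43492900. By GENCODE the octamers printed here lie inside these genes. Capitals mark an octamer (ATGCAAAT or its complement ATTTGCAT) and a TATA-type match (TATAA or its complement TTATA). The Rpph1 window covers 148 bases up to its first base (chr14:50807768-50807915) and the Rmrp window 250 bases that end 57 bases before it (chr4:43493115-43493364).
Rpph1 upstream: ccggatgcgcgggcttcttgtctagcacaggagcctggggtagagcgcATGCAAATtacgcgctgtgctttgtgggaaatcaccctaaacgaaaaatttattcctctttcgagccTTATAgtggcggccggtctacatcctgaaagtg
Rmrp upstream: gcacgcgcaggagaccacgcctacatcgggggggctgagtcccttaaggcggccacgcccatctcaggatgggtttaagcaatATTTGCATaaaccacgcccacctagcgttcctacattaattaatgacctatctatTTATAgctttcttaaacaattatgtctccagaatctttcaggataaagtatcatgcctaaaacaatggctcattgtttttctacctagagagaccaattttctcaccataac

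Before Rpph1 the octamer lies 93 to 100 bases and the TATA-type match 29 to 33 bases from the RNA's start. Before Rmrp, whose nearest 56 bases are not in the window, the octamer lies 216 to 223 bases and the TATA-type match 164 to 168 bases upstream. Of 32851 RefSeq promoter windows, searched on both strands, 1.74% hold the octamer, 24.9% the TATA-type letters and 0.597% both. A matching window of C920006O11Rik, 31 to 280 bases before Rn7sk, holds TATA-type letters but not the octamer. These are matches of letters and not measured binding.

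Rn7sk (chr9:78175303-78175633, minus strand) was the member with the highest level. It had 182382, 281593 and 250281 normalised reads in wild type and 212902, 396478, 289858 and 231395 in cKO MED1. The groups overlapped: wild-type replicate 1 was lowest and cKO MED1 replicate 2 highest of the 7 libraries. The means were 238086 ± 50717 (SD, n = 3) in wild type and 282658 ± 82665 (SD, n = 4) in cKO MED1, with a log2 fold change of 0.23 (SE 0.27), which became -0.0036 without wild-type replicate 1 and 0.34 without cKO MED1 replicate 1. Reads of Rn7sk per read of Rpph1 were 1.93, 1.79 and 2.54 in wild type and 3.52, 1.86, 2.52 and 6.62 in cKO MED1, so the high ratio came from cKO MED1 replicates 1 and 4, in which Rpph1 was low.

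Other genes carry sequence of 7SK RNA, and 192 of the 282 windows of 50 bases in Rn7sk occur in 1 or more of 7 such genes. Gm24447 (chr15:93234363-93234700) has the most windows, 192, and had 163318 ± 35575 (SD, n = 3) in wild type and 203699 ± 52492 (SD, n = 4) in cKO MED1 normalised reads. Summed over these 8 genes, a sum made after the values had been seen, 7SK RNA had 416211 ± 89299.9 (SD, n = 3) and 504744 ± 140132 (SD, n = 4) normalised reads. Rn7sk took 54.7% to 58.4% of them in each library. The labels and notes do not say how reads that match several of these genes were counted, and the division of reads among them is uncertain.

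Terc (chr3:96414437-96414859, minus strand) was far lower and varied more within cKO MED1 than within wild type. It had 474, 552 and 436 normalised reads in wild type and 381, 680.4, 396 and 203 in cKO MED1. The cKO MED1 libraries lay on both sides of the wild-type range, from replicate 4 as the lowest to replicate 2 as the highest of all. The means were 487 ± 58.9 (SD, n = 3) in wild type and 415 ± 197 (SD, n = 4) in cKO MED1 and the log2 fold change was -0.35 (SE 0.30), which became -0.60 without cKO MED1 replicate 2 and -0.03 without cKO MED1 replicate 4.

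**Figure D4:**
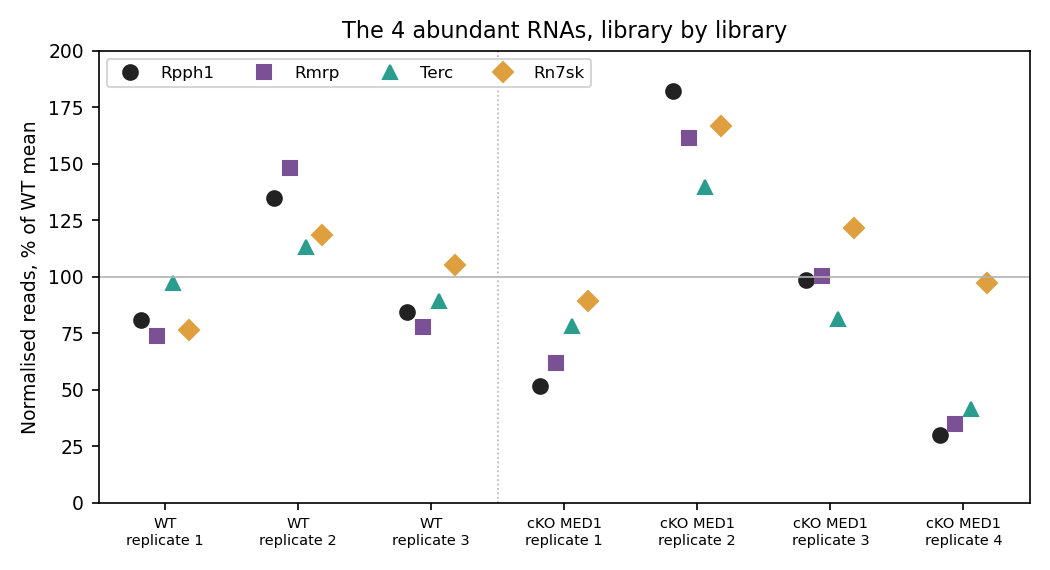
Normalised reads of Rpph1, Rmrp, Terc and Rn7sk in each library as a percent of the gene's wild-type mean, with 100 marked by a line. All 4 RNAs are highest in cKO MED1 replicate 2, and in cKO MED1 replicate 4 Rpph1, Rmrp and Terc are at their lowest while Rn7sk is not.

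Per kb of exon, and averaged over all 7 libraries, the order of the levels was Rn7sk (796241 normalised reads per kb), Rpph1 (346382), Rmrp (109813), Rprl3 (2542), Terc (1055), Rprl2 (31.8) and Rprl1 (5.45). Rprl3 and Terc changed places between the groups, at 67.8 ± 52.8 and 1152 ± 139 (SD, n = 3) in wild type and 4398 ± 2124 and 981 ± 467 (SD, n = 4) in cKO MED1. Between Rpph1 and Rmrp the cKO MED1 spreads over libraries overlapped (331698 ± 247088 and 104626 ± 64121, SD, n = 4), although Rpph1 had more reads than Rmrp in each library. Levels at or below 5.45 per kb rest on so few reads that Rprl1 cannot be told from Rprl2 in wild type.

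Likeness over the 7 libraries put the RNAs into different company. Rmrp was the tested gene most like Rpph1 (r 0.984, rho 1.00, n = 7), followed for both RNAs by the pseudogene Gm14044 and by Tubd1, a tubulin gene. Gm14044 and Tubd1 also had rho 1.00 with each of these RNAs. Rn7sk was most like the 7SK genes Gm24447 (r 0.982) and Gm26035 (r 0.973) and the pseudogene Gm10033 (r 0.978). Terc was most like H2-Ab1, a class II histocompatibility chain (r 0.995), the snoRNA gene Gm23639 (r 0.988) and Cotl1 (r 0.984), an actin-binding protein. Rprl2 was most like Cebpd (r 0.987), Batf3 (r 0.977) and Osgin1 (r 0.976). The points share their depth and, for Rprl2, the group difference.

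Neighbouring genes give the surroundings of the abundant RNAs. Parp2, a poly(ADP-ribose) polymerase, starts 74 bp from Rpph1 on the other strand in GENCODE. It had 1613 ± 99.9 (SD, n = 3) in wild type and 1373 ± 101 (SD, n = 4) in cKO MED1 normalised reads (log2 fold change -0.23, limma adjusted p = 0.0708). Arhgef39, on the upper side of Rmrp, rose from 273 ± 10.6 (SD, n = 3) to 398 ± 45.7 (SD, n = 4) (log2 fold change 0.54, limma adjusted p = 0.0096), a call lost without wild-type replicate 1, with total reads, without a filter and with the sex of each library, read from Ddx3y, as a covariate. Sit1, Ick, C920006O11Rik and Gm21960, next to Rmrp, Rn7sk or Terc, did not pass the test.

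Genes of the proteins that bind, transcribe or finish these RNAs were lower more often than higher in cKO MED1. Of 70 such genes in 6 lists, all tested, 32 fell and 2 rose, where 14.6% of all tested genes fell and 13.4% rose. Their median log2 fold change was -0.30, against 0.04 for all tested genes. The share that fell also depends on level: of 31 partner genes in the middle tertile of mean level 16 fell, where 15.4% of all genes there did, and of 38 in the highest tertile 16 fell, where 27.6% did. In the 4 lists without a called rise, limma at an unadjusted p under 0.05, edgeR and DESeq2 also put 0 genes higher.

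The RNase P and RNase MRP protein subunits held 8 genes that fell and none that rose among 11 tested (median -0.46). Pop1, the largest subunit, had 1168, 916 and 748 normalised reads in wild type and 417, 397, 436 and 399 in cKO MED1. All cKO MED1 libraries lay below all wild-type libraries and close together, with means of 944 ± 211 (SD, n = 3) in wild type and 412 ± 18.3 (SD, n = 4) in cKO MED1 (log2 fold change -1.17, SE 0.13, limma adjusted p = 0.000346). Pop1 kept its call in 19 of 19 alternatives. Rpp40 (log2 fold change -0.66, limma adjusted p = 0.00926), Rpp14 (-0.61, limma adjusted p = 0.004) and Rpp30 (-0.57, limma adjusted p = 0.00781) also fell. With sex as a covariate 1 subunit was called lower, without wild-type replicate 1 there were 4, and without cKO MED1 replicate 4 there were 4.

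Among 7 genes of the 7SK particle and P-TEFb 3 fell (median -0.25). Larp7, which binds and protects the end of 7SK RNA, had 1332 ± 181 (SD, n = 3) in wild type and 820.2 ± 73.3 (SD, n = 4) in cKO MED1 normalised reads (log2 fold change -0.69, limma adjusted p = 0.00235). Cdk9, the kinase of P-TEFb (-0.29, limma adjusted p = 0.0343), and Mepce, which caps 7SK RNA (-0.29, limma adjusted p = 0.047), fell by less, and each lost its call in 9 or more of the 19 alternatives. Ccnt1, the main cyclin partner of Cdk9, was at -0.25 (limma adjusted p = 0.0616).

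Of 9 genes of telomerase and its assembly 5 fell and none rose (median -0.52). Dkc1, the pseudouridine synthase that also holds telomerase RNA, had 4342, 3628 and 3248 normalised reads in wild type and 2172, 2188, 2305 and 1570.2 in cKO MED1, without overlap (log2 fold change -0.87, limma adjusted p = 0.00262). On the log2 scale Gar1, a protein of the same particle, fell by 0.87 (limma adjusted p = 0.00399), the assembly factor Shq1 by 0.66 (limma adjusted p = 0.00719) and the assembly factor Naf1 by 0.52 (limma adjusted p = 0.00748). These proteins also serve the H/ACA box snoRNAs. Tert, the protein subunit of telomerase itself, was at -0.08 and did not pass the test.

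Of 13 RNA polymerase III subunits 5 fell and 1 rose (median -0.23). Polr1c, which RNA polymerase I also uses (log2 fold change -0.53, limma adjusted p = 0.00748), Polr3b (-0.43, limma adjusted p = 0.0102) and Polr3e (-0.40, limma adjusted p = 0.0136) fell, and Polr3gl, an alternative subunit named here after its value was seen, rose by 0.45. Among 19 initiation and promoter factors 5 fell and 1 rose (median -0.11). That is 31.6% called, close to the 28% of all tested genes. Snapc1, a subunit of the SNAPc complex, had 433 ± 13.0 (SD, n = 3) in wild type and 246 ± 48.8 (SD, n = 4) in cKO MED1 normalised reads (log2 fold change -0.83, limma adjusted p = 0.0034) and kept its call in 19 of 19 alternatives. Snapc2 (-0.45), Gtf3c4 (-0.50) and Gtf3a (-0.40) also fell, and the octamer factor gene Pou2f1, named after its value was seen, rose by 0.30.

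Of 11 genes for end maturation and La proteins 6 fell and none rose (median -0.34). Dis3, a nuclease of the exosome, had a log2 fold change of -0.72 (limma adjusted p = 0.00199), and Toe1, which trims the ends of small RNAs, fell by 0.54 (limma adjusted p = 0.00449). Ssb, which encodes the La protein that binds new RNA polymerase III transcripts, fell by 0.34 (limma adjusted p = 0.0208), and Larp4 fell by 0.41 (limma adjusted p = 0.0209). Over all 6 lists 2 genes were called lower with sex as a covariate, 16 without wild-type replicate 1 and 17 without cKO MED1 replicates 3 and 4.

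**Figure D5:**
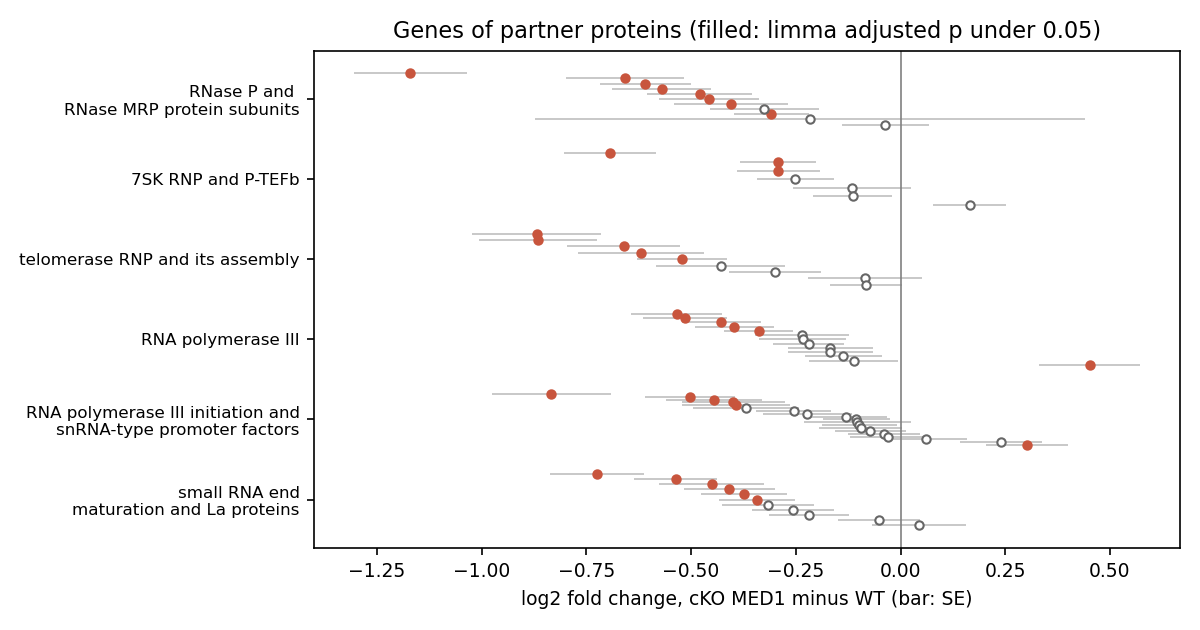
Log2 fold change (cKO MED1 minus wild type, bar: SE) of the 70 partner protein genes in 6 lists, filled where the limma adjusted p is under 0.05. Filled points lie left of 0 for 32 genes and right of 0 for 2.

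Few of the other small RNA genes passed the test. Of 96 tested genes in 6 classes 4 rose and 3 fell, or 7.29%, against 28% of all tested genes. Among 9 U snRNA genes limma, edgeR and DESeq2 each called 0, with 1 at an unadjusted limma p under 0.05, and among 5 Cajal body RNA genes and 7 Y, vault, 5S and 7SL RNA genes all of these counts were 0. With scaling by total reads 14 of the 96 fell. Of 41 C/D box snoRNA genes 1 fell, Snord19 (log2 fold change -0.82, limma adjusted p = 0.0301), and of 20 H/ACA box snoRNA genes 2 fell, Snora78 (-0.64, limma adjusted p = 0.0147) and Snora17 (-0.71, limma adjusted p = 0.0275). Of 14 mitochondrial tRNA genes 4 rose, among them mt-Tq (1.64, limma adjusted p = 0.0109), mt-Te (1.64, limma adjusted p = 0.0237) and mt-Tw (0.59, limma adjusted p = 0.0147). Their class sum was 1296, 1645 and 1291 normalised reads in wild type and 1417, 1923, 2870 and 3532 in cKO MED1, highest in replicates 3 and 4. Of 358 such genes in the table, 96 passed the filter on low values.

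7SL RNA, another RNA polymerase III product and the RNA of the signal recognition particle, was more abundant than any member. Its gene Rn7s2 had 566606, 742838 and 742551 normalised reads in wild type and 560232, 1044672, 929316 and 591102 in cKO MED1. The groups overlapped (limma adjusted p = 0.767), and cKO MED1 replicate 2 was highest for Rn7s2 as it was for Rpph1, Rmrp, Rn7sk and Terc.

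Facts of the libraries that touch these values are few. The libraries held 31937372 to 61149274 recovered reads, and each wild-type library was deeper than each cKO MED1 library. Med1 had 4379.5 ± 326 (SD, n = 3) in wild type and 2361 ± 186 (SD, n = 4) in cKO MED1 normalised reads (log2 fold change -0.89, limma adjusted p = 0.000174), lower in all 4 cKO MED1 libraries. The 6 B cell markers were present in all libraries and summed to 167756 to 180920.0 normalised reads in wild type and 117532 to 132624 in cKO MED1. Summed markers of other cells, in wild type and cKO MED1, were 32.6 to 46.3 and 28.5 to 139 for 6 T cell genes, 159 to 313 and 141 to 265 for 5 macrophage genes, 0.688 to 5.71 and 8.13 to 38.4 for 5 neutrophil genes, and 135 to 247 and 134 to 484 for 6 erythroid genes. Within the erythroid sum single genes went opposite ways. Hba-a1 was higher in cKO MED1 (log2 fold change 2.62, limma adjusted p = 0.0117) and Hbb-bt lower (-1.47, limma adjusted p = 0.00674). Of the 5 neutrophil genes 4 were at 0 in 1 or more libraries, and the part of all these other cells in the results was not tested. The Y-linked gene Ddx3y had 4496 to 4895 normalised reads in the wild-type libraries, 4469.9 in cKO MED1 replicate 3 and at most 4.07 in the other cKO MED1 libraries. Sex therefore nearly coincides with group. Rprl3 stood at 1731 in replicate 3 and between 523 and 1825 in the other cKO MED1 libraries. Replicate 3 is 1 library, so these Rprl3 values cannot tell sex apart from the cKO MED1 label. In bulk RNA, fewer cells of a type and less RNA per cell cannot be told apart.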

How the data were processed

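RNA of 7 cultures of mouse splenic B cells (3 WT, 4 cKO MED1) was sequenced from stranded total RNA libraries, per the labels. The authors deposited a signal per gene, read counts divided by 1 factor per library: 100% of values were whole multiples of the library's step within a tolerance of 1e-06, so whole reads were recovered. The build GRCm38 and the tools DESeq2, R 3.4, featureCounts, Subread 1.5.0-p3 and STAR 2.4.0a appear in the submitters' processing notes, without their order. Neither these notes nor the labels say how strand and reads with several matches were treated. The phiX174 row (at most 0.000383% of reads) was left out.

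TMM factors from edgeR 4.0.16 brought the reads to a common library of 48019763, and filterByExpr kept 18062 of 46959 features. Groups were compared in R 4.3.3 with limma 3.58.1, using its trend option, on log2(normalised reads + 1), that is a pseudocount of 1, with Benjamini-Hochberg adjusted p under 0.05 over all tested genes. It called 5065 genes, 2419 higher and 2646 lower; the edgeR test and DESeq2 1.42.0 on recovered reads were alternatives. Fold changes understate changes of low genes. Depth was 31937372 to 61149274 reads per library, and intervals of shares are Wilson intervals at 95% for counting error. On simulated reads of this design (17605 genes), 18 of 66 genes given a log2 change of 0.5 were recovered (27.3%). For log2 changes of 1 and 2, 37 of 64 (57.8%) and 59 of 64 (92.2%) were recovered. Beside these true calls there were 14 false calls. Simulated reads with as large a share of changed genes as the share called in the data were not tested.

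Members and lists were chosen with earlier results of these data known. Named genes are every member, Med1, up to 4 genes per partner list and 3 per small RNA class with the smallest adjusted p, the nearest annotated genes, and the 3 most correlated genes per member. A gene that this rule takes is not reported here. Positions and sequences come from GENCODE (GRCm38), which placed 44131 features (94.0%) by symbol, and promoter windows from RefSeq; 0 members had a promoter window of their own. Sequences were aligned with Biopython. In all, 19 alternatives were run: other scalings, pseudocount, tests, filters, covariates, threshold and left-out libraries.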

Additional observations from a re-analysis of the deposited data

How the results depend on the processing

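The members were chosen on this contrast, so their values under the alternatives are descriptions and do not support them. Rprl3 had log2 fold changes of 5.39 to 6.72, and of 5.39 to 6.64 over left-out libraries. The Rprl2 log2 fold change was 1.82 with pseudocount 5, 5.43 with edgeR, 5.87 with DESeq2 and 4.69 with sex as a covariate, and 3.25 to 4.12 over the left-out libraries that could be tested; it was not tested at CPM 1 in 3 libraries or without cKO MED1 replicate 1, 2 or 3, since fewer genes passed the filter. Against 2 members called, there was 1 at CPM 1, with sex and at threshold 0.01, and 1 to 2 over left-out libraries. The RNase P RNA sum ranged from -0.81 to 0.05 over left-out libraries.

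All genes called numbered 5065, and 228 with sex as a covariate, 2145 without cKO MED1 replicates 3 and 4, 1307 at threshold 0.01 and 1556 (without WT replicate 1) to 6126 (without cKO MED1 replicate 1) over left-out libraries. Of them 47.8% were higher, 31.8% with total reads, 37.3% with the authors' scaling; the median over all tested genes (log2) moved from 0.04 to -0.20 and -0.10. Partner protein genes called lower were 32, and 2 with sex, 17 without cKO MED1 replicates 3 and 4, 15 at threshold 0.01 and 16 to 39 over left-out libraries. Partner genes called higher were 2, and 0 with total reads, the authors' scaling, no filter, the replicate block, sex, without cKO MED1 replicates 3 and 4 and at threshold 0.01, 4 at CPM 1, and 0 to 3 over left-out libraries. Other small RNA genes called lower were 3, and 14 with total reads, 1 at CPM 1, with the replicate block and without cKO MED1 replicates 3 and 4, 0 with sex and at threshold 0.01, and 1 to 3 over left-out libraries. Those called higher were 4, and 0 with sex and at threshold 0.01, 1 without cKO MED1 replicates 3 and 4, and 1 to 10 over left-out libraries. The causes were not tested.

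Whether the replicate numbers pair the samples is not stated, and so few libraries cannot settle it. The deviations of same-numbered libraries correlated at 0.515, -0.235 and 0.163, and only wild-type replicate 1 correlated best with its own number. With the replicate block limma called 3741 genes, 24 partner genes lower among them. Depth limits Rprl1 and Rprl2, which rest on 8 and 53 reads in all.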
